A study of Mus musculus with 8 samples.

Results

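The genes examined were 9 that act in the clearance of organelles and nuclei from lens fiber cells (FC), namely Dnase2b, Dnase2a, Pla2g16, Alox15, Bnip3l, Bnip3, Fyco1, Epg5 and Dnase1. They were chosen by their known roles and matched by gene symbol, and all 9 were found among the 35275 genes listed in the expression table. FPKM is a read level scaled to gene length and library size. A group mean of 1 FPKM or more was reached by 6 of the 9 genes, out of 9794 genes tested in all.

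The libraries came from lens FC of C57BL/6 mice (C57BL/6J in the study's methods), 4 libraries from mice kept under cigarette smoke (CS) and 4 from age-matched untreated control (Ct) mice. Each library was a pool of FC from 4 mice. The smoke was given to the whole body over 3.5 months from around birth, in weekly rounds of 5 days with 5 hours of smoke on each, and Ct mice stayed in the animal facility. The study's methods give 2 male and 2 female pools in each group, whereas the labels do not give the sex of any library.

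Lens FC arise from the lens epithelium and, as they mature, lose their nuclei, mitochondria and endoplasmic reticulum, which leaves the lens core free of particles that scatter light. DNA is cut by an acid DNase delivered from lysosomes, organelle membranes are opened by phospholipases and lipid-oxidizing enzymes, and mitochondria can be removed by mitophagy, in which receptors on the mitochondrial surface bind autophagosomes that later fuse with lysosomes. Dnase2b encodes the DNase that degrades nuclear DNA in the lens, and lenses without it retain DNA and become opaque. FC lysates hold young nucleated cells at the lens surface as well as mature cells, and in such bulk samples fewer cells of a type and less RNA per cell cannot be told apart.

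The stretch before the start of Dnase2b is shown beside that of its relative Dnase2a because both encode acid DNases but differ widely in level in these libraries. The sequences are the 250 bases before each RefSeq start on the GRCm38.p6 mouse assembly, read 5′ to 3′ along the gene. The Dnase2b stretch is at chr3:146615599-146615848 on the minus strand and the Dnase2a stretch is at chr8:84908505-84908754 on the plus strand. In the GENCODE M21 annotation Dnase2a starts at chr8:84908560, so most of its stretch lies inside the annotated gene. The Dnase2b stretch lies outside its annotated gene. Capitals mark a match to GAANNTTC, the core of the element bound by heat shock factors, which reads the same on both strands and was the only motif searched.
Dnase2b: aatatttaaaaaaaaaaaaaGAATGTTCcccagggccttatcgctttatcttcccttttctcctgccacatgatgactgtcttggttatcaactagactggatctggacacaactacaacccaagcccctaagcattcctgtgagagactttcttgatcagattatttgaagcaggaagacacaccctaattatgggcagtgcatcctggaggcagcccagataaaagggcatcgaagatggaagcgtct
Dnase2a: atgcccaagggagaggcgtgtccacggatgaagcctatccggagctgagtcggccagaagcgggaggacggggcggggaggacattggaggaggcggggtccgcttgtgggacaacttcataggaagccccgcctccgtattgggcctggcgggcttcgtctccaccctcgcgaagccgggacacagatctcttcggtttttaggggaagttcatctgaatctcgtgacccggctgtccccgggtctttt
The Dnase2b stretch holds 1 match, GAATGTTC, whose first base lies 230 bases before the start, and the Dnase2a stretch holds none. Of all 32851 mouse promoter windows of this length, 6.69% hold the motif, and a match describes only the letters, since binding was not tested. The Dnase2b stretch has 3 CG dinucleotides and a GC content of 43.6%, against 20 CG dinucleotides and 62.4% for Dnase2a, where the median window has 6 CG dinucleotides and 29% of windows have fewer than Dnase2b. Windows were matched for 6 of the 9 genes. One of the 2 Fyco1 starts has a match 56 bases upstream, and the windows of Pla2g16, Bnip3 and Dnase1 have none. Alox15, Bnip3l and Epg5 were not matched.

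The table gave whole reads for 99.8% of tested genes when FPKM values were divided by the value of 1 read, with a tolerance of 0.02 reads. On this scale the depth of the libraries lay between 0.91 and 1.17 times that of Ct 1. With gene lengths from GENCODE M21 this corresponds to about 18100000 to 23300000 fragments, a value on which 828 of 9303 genes with a length agreed. Lens fiber markers summed to 345148 to 355709 FPKM in Ct and 335967 to 348867 FPKM in CS libraries, and all 13 of them were tested, so the labelled cell type was borne out by its crystallins and membrane proteins. Lens epithelium markers summed to 88.4 to 159 FPKM in Ct and 74.1 to 112 FPKM in CS, and all 10 of those tested had a negative fold change. Rod photoreceptor markers summed to 11.97 to 33.4 FPKM in Ct and 36.03 to 108 FPKM in CS, with no overlap, and retinal pigment epithelium markers to 1.54 to 2.46 FPKM in Ct and 3.69 to 27.4 FPKM in CS. Xist was at most 0.0113 FPKM in the libraries numbered 1 and 2 and between 41.1 and 49.0 FPKM in those numbered 3 and 4 of both groups.

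**Figure D1:**
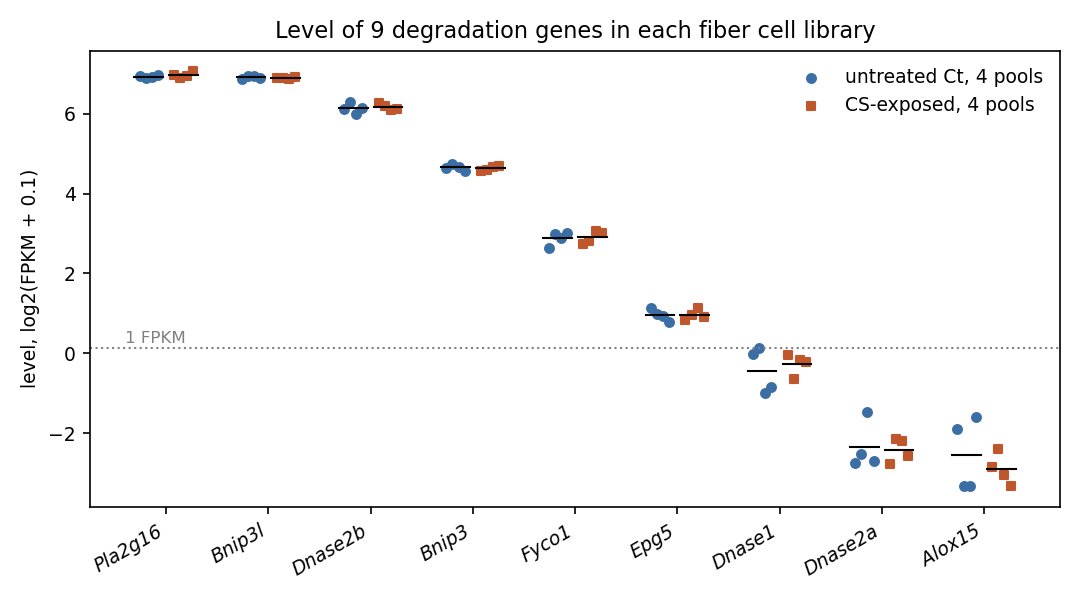
Levels of the 9 genes in each library, as log2(FPKM + 0.1), with Ct and CS libraries side by side, a bar at each group mean and a dashed line at 1 FPKM. Pla2g16, Bnip3l and Dnase2b lie highest, Dnase2a and Alox15 lie lowest, and the Ct and CS points of every gene overlap.

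In the deposited FPKM, which depend on the gene lengths behind them, Pla2g16 and Bnip3l had the highest levels of the 9 genes, with means over the 8 libraries of 123 and 120 FPKM, and they ranked 290 and 295 by mean among all genes listed. Dnase2b followed at 71.1 FPKM and rank 472, and Bnip3 at 24.9 FPKM and rank 1278. Fyco1 at 7.38 FPKM and Epg5 at 1.85 FPKM stood in the middle of the order. Dnase1 at 0.714 FPKM, Dnase2a at 0.101 FPKM and Alox15 at 0.0682 FPKM fell under the minimum and were not among the genes tested.

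In that order, 6 of the 8 steps between neighbours exceeded the spread between libraries. The higher gene of each of these 6 pairs was higher in 8 of 8 libraries (exact two-sided sign-flip permutation test over the 8 libraries, p = 0.00781, the smallest it can give, Benjamini-Hochberg adjusted p = 0.0104 over the 8 pairs). The mean level of Bnip3l was 1.68 times that of Dnase2b, that of Dnase2b 2.86 times that of Bnip3, that of Bnip3 3.37 times that of Fyco1 and that of Fyco1 3.98 times that of Epg5. Further down, Epg5 exceeded Dnase1 2.60 times and Dnase1 exceeded Dnase2a 7.10 times. Pla2g16 and Bnip3l did not differ beyond their spread, since Pla2g16 was the higher in 5 of 8 libraries, by 0.04 ± 0.06 on the log2 scale (SD, n = 8, exact permutation p = 0.0859, adjusted p = 0.0982). Dnase2a and Alox15 did not either, with Dnase2a higher in 6 of 8 libraries by 0.34 ± 0.96 (SD, n = 8, exact permutation p = 0.367). The order was taken from these same 8 libraries, so the tests describe only how steady each step was over them. Error in the gene lengths behind the FPKM is not covered.

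The place of Pla2g16 in this order depends on gene length. The deposited FPKM imply a length of 3523 bases for Pla2g16, where the exons of GENCODE M21 cover 6396 bases, and 3259 against 3859 bases for Bnip3l and 2566 against 2790 bases for Dnase2b. On the M21 lengths the means were 100.9 FPKM for Bnip3l, 67.8 FPKM for Pla2g16 and 65.4 FPKM for Dnase2b. Bnip3l was then above Pla2g16 in 8 of 8 libraries by 0.57 ± 0.06 on the log2 scale (SD, n = 8, exact permutation p = 0.00781), and Pla2g16 was above Dnase2b in 5 of 8 by 0.05 ± 0.12 (SD, n = 8, exact permutation p = 0.219). A change of length moves a log2 ratio by almost the same amount in every library. These p-values therefore do not cover the choice of length, and the reads were counted on an annotation whose release is not given. The order of the other genes was the same on both lengths, and gene length enters a comparison of CS with Ct for 1 gene only through the added 0.1 FPKM and the minimum.

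Smoke exposure was compared with no exposure for each gene in turn, which asks whether the transcripts of the degradation program moved with CS. None of the 6 tested genes was called at an adjusted p under 0.05 (limma, Benjamini-Hochberg over all tested genes), against 1 of 9794 genes or 0.0102% overall. An unadjusted limma p under 0.05 was also reached by 0 of the 6, against 4.83% of all tested genes (2.75% higher and 2.08% lower in CS). A fit of the recovered reads with limma-voom also called 0 of the 6. The Ct and CS values overlapped for all 6, where 3.08% of tested genes had groups that did not overlap. The 6 log2 fold changes of CS over Ct lay between −0.02 and 0.04, and the median of their sizes was 0.026 against 0.084 over all tested genes. These medians were not matched for level. The SD of log2(FPKM + 0.1) had a median of 0.0724 for genes averaging 50 FPKM or more and 0.170 for all tested genes.

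**Figure D2:**
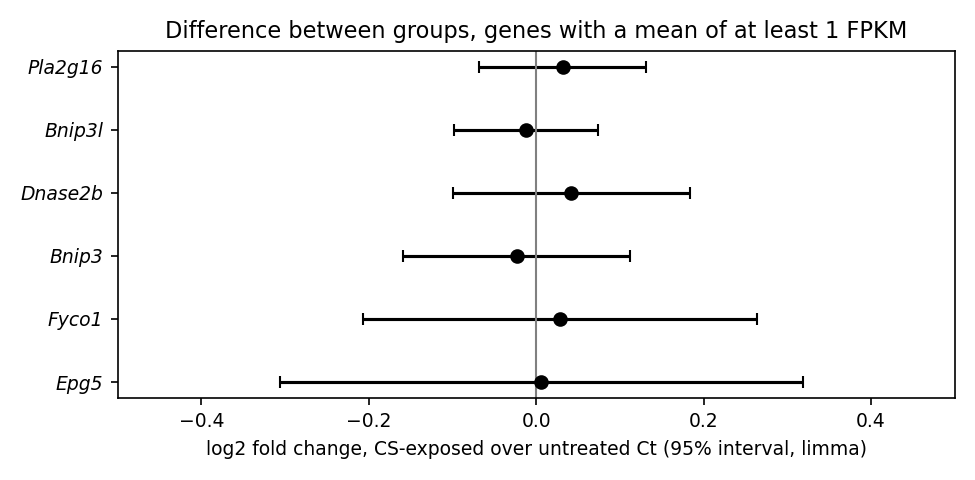
Difference between CS and Ct libraries for the 6 tested genes, as the log2 fold change of FPKM + 0.1 (points) with its 95% interval from limma (lines), around a vertical line at no difference. Every interval includes 0, and the intervals of Fyco1 and Epg5 are the widest.

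Dnase2b, the lens DNase (GRCm38 chr3:146580985-146615596, minus strand), measured 69.0, 77.7, 63.9 and 69.9 FPKM in Ct libraries 1 to 4 and 77.2, 73.4, 68.5 and 69.4 FPKM in CS libraries 1 to 4. The lowest value, in Ct 3, and the highest, in Ct 2, both belonged to Ct, so the CS values lay inside the Ct range. Group means of 70.1 ± 5.72 FPKM in Ct and 72.1 ± 3.99 FPKM in CS (SD, n = 4 each) differed by 0.04 on the log2 scale (SE 0.06, 95% interval −0.10 to 0.18, limma p = 0.531, adjusted p = 0.985, exact permutation p = 0.629). On a linear scale the interval runs from 0.933 to 1.14 times the Ct level. At least 3245 reads stood behind each of its values.

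Dnase2a (chr8:84908560-84922915, plus strand) encodes the ubiquitous lysosomal DNase that digests DNA of engulfed cells in macrophages and other tissues. It was at 0.0494, 0.0746, 0.264 and 0.0543 FPKM in Ct libraries 1 to 4 and 0.0465, 0.128, 0.120 and 0.0681 FPKM in CS libraries 1 to 4. These levels rest on 4, 6, 25 and 4 reads in Ct and on 4, 12, 10 and 6 reads in CS, so that Ct 3 alone held 25 of the 39 Ct reads. Without the minimum its log2 fold change was −0.06 (95% interval −0.83 to 0.71, limma p = 0.860, adjusted p = 0.979, exact permutation p = 0.857), on a scale where the added 0.1 FPKM is as large as the level itself. Of its 5389 exonic bases in the GENCODE M21 annotation, 29.99% are shared with the overlapping gene Mast1, which stood at no more than 0.150 FPKM, and no strand setting is given in the sources used here.

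Dnase1 (chr16:4036942-4040024, plus strand) encodes the secreted DNase I, which acts on DNA outside cells. Its levels were 0.886, 1.001, 0.402 and 0.457 FPKM in Ct libraries 1 to 4 and 0.869, 0.545, 0.788 and 0.764 FPKM in CS libraries 1 to 4. Ct libraries held both the 2 highest and the 2 lowest values, with all CS libraries in between. Reads numbered 153 in all Ct and 177 in all CS libraries, and the log2 fold change without the minimum was 0.16 (95% interval −0.56 to 0.89, limma p = 0.622, adjusted p = 0.939, exact permutation p = 0.629). Dnase1 shares 18.1% of its exonic bases with Gm15879 and Trap1, and Trap1 was the more abundant of these neighbours at 6.46 to 8.71 FPKM, so the low Dnase1 values are uncertain.

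Among 6 DNase genes whose FPKM were summed in each library, Dnase2b made up 95.5% to 97.3% of the sum. The others were Dnase2a, Dnase1, Dnase1l1 at a mean of 1.22 FPKM, Dnase1l2 at 0.434 FPKM and Dnase1l3, listed at 0. Other nucleases, such as the putative DNase gene Tatdn2 at a mean of 9.12 FPKM, were not in the sum. The log2 ratio of Dnase2b to Dnase2a, with 0.1 FPKM added to each, was 8.48 ± 0.68 in Ct and 8.59 ± 0.35 in CS (SD, n = 4 each). Without the added 0.1 FPKM, which is about as large as the Dnase2a level, the linear ratio ran from 242 to 1658 over the libraries with a median of 1030. The log2 difference of 0.10 was smaller than the spread between libraries (exact two-sided permutation test, p = 0.8286, where the smallest p for 4 against 4 libraries is 0.0286). Ct 3 had the lowest ratio, at 7.46.

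Pla2g16, also named Plaat3 (chr19:7557459-7588545, plus strand), encodes a phospholipase that acts on organelle membranes in lens FC and is required for their breakdown. Ct libraries 1 to 4 had 123, 119, 121 and 124.7 FPKM and CS libraries 1 to 4 had 124, 118, 123 and 133 FPKM. CS 4 was the highest and CS 2 the lowest, so the Ct values lay within the CS range. The means of 122 ± 2.51 and 124.6 ± 6.13 FPKM (SD, n = 4 each) gave a log2 fold change of 0.03 (SE 0.05, 95% interval −0.07 to 0.13, limma p = 0.498, adjusted p = 0.985, exact permutation p = 0.543). Without CS 4 the log2 fold change of Pla2g16 was 0.00043 and without CS 2 it was 0.06, and it was 0.0029 in the libraries numbered 1 and 2 and 0.06 in those numbered 3 and 4.

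Alox15 (chr11:70344152-70352031, minus strand) encodes a lipoxygenase that oxidizes membrane lipids and has been tied to organelle loss in maturing red cells. It was listed at 0.167, 0, 0 and 0.229 FPKM in Ct libraries 1 to 4 and at 0.0393, 0.0899, 0.0202 and 0 FPKM in CS libraries 1 to 4. The 3 zeros allow levels of up to 0.0631 FPKM in Ct 2, 0.0536 FPKM in Ct 3 and 0.0576 FPKM in CS 4, taking 3 reads as the limit of a count of 0. All Ct libraries together held 18 reads and all CS libraries 8, and the log2 fold change without the minimum was −0.37 (95% interval −1.33 to 0.60, limma p = 0.416, adjusted p = 0.909, exact permutation p = 0.457). These limits and intervals cover counting error and library spread and not the uncertainty of read assignment.

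Bnip3l, also called Nix (chr14:66985239-67008877, minus strand), encodes the mitophagy receptor that clears mitochondria from maturing red cells and lens FC. Its levels were 117, 123, 122 and 118 FPKM in Ct libraries 1 to 4 and 119, 118, 117 and 122 FPKM in CS libraries 1 to 4. The 8 values are close to each other, with a coefficient of variation of 1.93%. Bnip3l averaged 120.03 ± 2.84 FPKM in Ct and 119 ± 1.89 FPKM in CS (SD, n = 4 each), and the fitted log2 difference of CS minus Ct was −0.01 (SE 0.04, 95% interval −0.10 to 0.07, limma p = 0.759, adjusted p = 0.991, exact permutation p = 0.629).

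The spread of Bnip3l over the 8 libraries, as an SD of log2(FPKM + 0.1), was 0.028, and only 7 of 9794 tested genes had a smaller one. Spread depends on level, so the 657 genes averaging 50 FPKM or more were also ranked, of which 6 had a smaller SD than Bnip3l and the median SD was 0.0724. In the same set 22.4% had a smaller SD than Pla2g16 and 72.8% a smaller SD than Dnase2b. This order describes these 8 libraries and was not tested.

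Bnip3 (chr7:138890836-138909519, minus strand), the close relative of Bnip3l and a mitophagy receptor induced by low oxygen in many tissues, measured 24.9, 26.7, 25.3 and 23.5 FPKM in Ct libraries 1 to 4 and 23.5, 24.0, 25.4 and 25.8 FPKM in CS libraries 1 to 4. Ct 4 and CS 1 were the lowest and Ct 2 the highest. Means of 25.1 ± 1.33 and 24.7 ± 1.13 FPKM (SD, n = 4 each) gave a log2 fold change of −0.02 (SE 0.06, 95% interval −0.16 to 0.11, limma p = 0.710, adjusted p = 0.991, exact permutation p = 0.686). Of its exonic bases, 22.3% are shared with the antisense gene Gm45507.

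Bnip3l exceeded Bnip3 by 4.59 to 5.07 times in every library. The log2 ratio was 2.25 ± 0.054 in Ct and 2.27 ± 0.063 in CS (SD, n = 4 each), and its difference of 0.011 was smaller than the spread (exact two-sided permutation test, p = 0.8, adjusted p = 0.8286 over the 2 ratios tested).

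Fyco1 (chr9:123789500-123851899, minus strand) encodes an adaptor that links autophagosomes to motors on microtubules, and its loss causes cataract. It was at 6.15, 7.85, 7.26 and 7.95 FPKM in Ct libraries 1 to 4 and at 6.60, 6.95, 8.32 and 7.92 FPKM in CS libraries 1 to 4. Library 1 was the lowest of its group in both groups. Fyco1 averaged 7.30 ± 0.826 FPKM in Ct and 7.45 ± 0.805 FPKM in CS (SD, n = 4 each), which differ by 0.03 on the log2 scale (SE 0.11, 95% interval −0.21 to 0.26, limma p = 0.796, adjusted p = 0.995, exact permutation p = 0.8).

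Epg5 encodes a tether that brings autophagosomes to lysosomes for fusion. Ct libraries 1 to 4 had 2.08, 1.88, 1.80 and 1.63 FPKM and CS libraries 1 to 4 had 1.69, 1.86, 2.11 and 1.77 FPKM. The lowest was Ct 4 and the highest CS 3. The means were 1.85 ± 0.185 and 1.86 ± 0.179 FPKM (SD, n = 4 each), and the log2 fold change was 0.0063 (SE 0.14, 95% interval −0.31 to 0.32, limma p = 0.966, adjusted p = 0.997, exact permutation p = 0.943). Its interval is the widest of the 6 tested genes and includes changes of 0.809 to 1.25 times the Ct level.

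**Figure D3:**
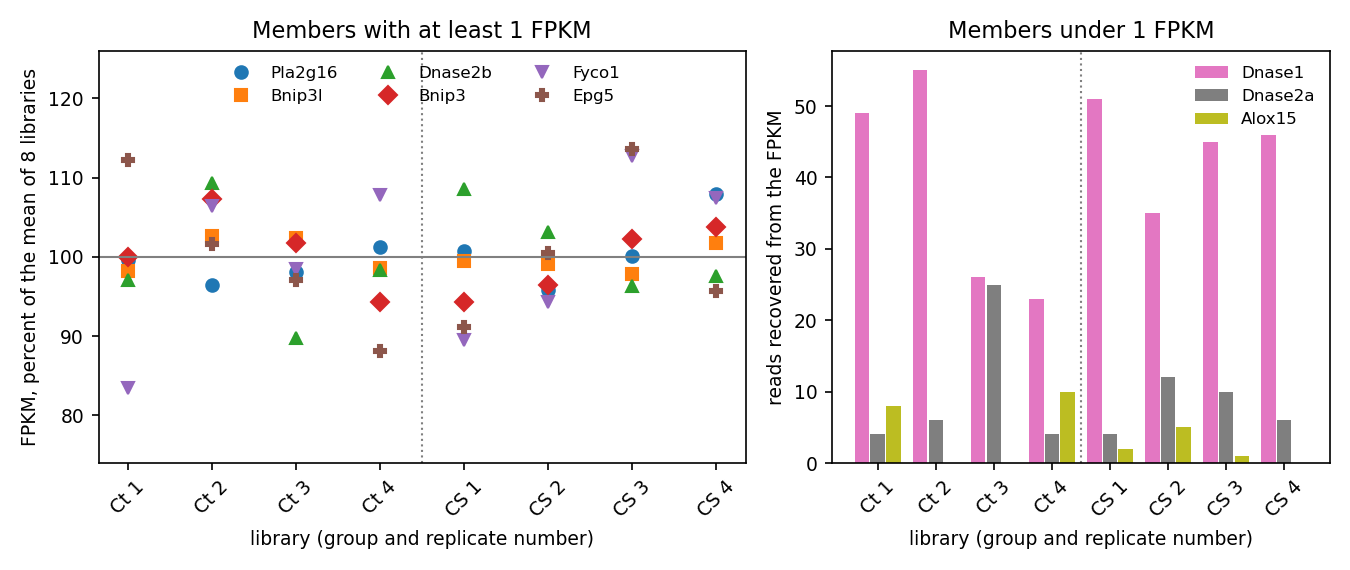
Left, FPKM of the 6 tested genes in each library as a percent of the gene's own mean over the 8 libraries. Right, whole reads recovered for Dnase1, Dnase2a and Alox15 in each library, with bars starting at 0. Bnip3l stays nearest to 100% and Ct 3 stands out with 25 Dnase2a reads.

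Libraries with and without Xist were set side by side because pools of both sexes were made. Dnase2b was at 69.0 to 77.7 FPKM in the libraries numbered 1 and 2 and at 63.9 to 69.9 FPKM in those numbered 3 and 4, so these ranges overlapped only between 69.0 and 69.9 FPKM. Pla2g16 was at 118 to 124 FPKM in the first set and at 121 to 133 FPKM in the second, and Fyco1 at 6.15 to 7.85 and 7.26 to 8.32 FPKM. No test was made between the sets, since the labels do not give the sex of the pools. Within them, the log2 fold change of CS over Ct for Dnase2b was 0.04 in both, that of Bnip3 was −0.12 and 0.07, that of Fyco1 −0.04 and 0.09 and that of Epg5 −0.15 and 0.16, and none of these passed the test.

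The members were also set beside cells that could add transcripts to FC lysates. Macrophages use Dnase2a, and their 10 markers were each under 1 FPKM, summed to 0.0829 to 0.772 FPKM in Ct and 0.176 to 0.586 FPKM in CS, and included Tyrobp at 0. Maturing red cells use Alox15 and Bnip3l, and erythroid markers summed to 0.265 to 1.73 FPKM in Ct and 0.4999 to 22.8 FPKM in CS, highest in CS 4, where Alox15 was listed at 0 and Bnip3l was at 122 FPKM. Both erythroid markers that were tested had a positive log2 fold change, of 1.54 and 2.42, 1 of them with an unadjusted limma p under 0.05 and 0 called, and Hemgn, an erythroid nuclear factor, was listed at 0. The part in the member levels of these cells, and of the epithelial and retinal cells whose markers are given above, was not tested.

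The 3 genes whose levels followed Dnase2b most closely over the 8 libraries were Ermap, Ccdc15 and Lrrc66, with Pearson correlations of log2(FPKM + 0.1) of 0.934, 0.933 and 0.931. They are the top of 9793 genes searched, 15 of which exceeded 0.9, and all values share the same 8 libraries and their scaling, so the correlations are given as a description.

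Other genes of the same steps were taken from 9 lists that hold 119 genes, of which 118 were listed in the table and 93 were tested. In the limma fit, 0 of the 93 were called at an adjusted p under 0.05, and 2 had an unadjusted p under 0.05, both higher in CS, against 4.83% of all tested genes (2.75% higher and 2.08% lower). Groups did not overlap for 3 of the 93 genes (Pla2g6, Rubcn and Hsf4), or 3.23%, against 3.08% of all tested genes. The median log2 fold change of the 93 genes was 0.036 and that of all tested genes 0.0043.

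Among other nucleases, 7 of 14 were tested and 0 had an unadjusted p under 0.05. Tatdn2, of a family of putative metal-dependent DNases, was the most abundant at a mean of 9.12 FPKM, and Tatdn3 had the smallest p (5.15 FPKM in Ct and 5.86 FPKM in CS, log2 fold change 0.19, limma p = 0.0876, exact permutation p = 0.0857). Endog, a mitochondrial nuclease, was at 0.276 FPKM, and Trex1, a cytosolic exonuclease, was listed at 0. Of 14 nuclear envelope and lamina genes, 13 were tested and 0 had an unadjusted p under 0.05. Banf1, which binds DNA to the envelope, averaged 52.5 FPKM in Ct and 48.2 FPKM in CS (log2 fold change −0.13, limma p = 0.108, exact permutation p = 0.2), and Lemd3, an inner membrane protein, 1.32 and 1.83 FPKM (log2 fold change 0.42, limma p = 0.0617, exact permutation p = 0.114). Lmna was at 11.8 FPKM and Lmnb1 at 1.45 FPKM.

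Of 8 tested genes among 10 kinases and cell cycle genes linked to nuclear breakdown, 0 had an unadjusted p under 0.05. Cdk1, the mitotic kinase, was at 0.129 FPKM and its partner Ccnb1 at 0.0524 FPKM, while the inhibitor Cdkn1c, which keeps FC out of the cell cycle, had means of 213 FPKM in Ct and 208 FPKM in CS. Cdkn1b, a related inhibitor, had the smallest p of this list at 9.50 and 10.4 FPKM, a log2 fold change of 0.13.

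Phospholipases related to Pla2g16 had lower levels than it, and 6 of 11 were tested, of which 0 had an unadjusted p under 0.05. Hrasls and Hrasls5, of the same family as Pla2g16, were at 0.193 and 0.183 FPKM, and Pnpla8, a phospholipase of mitochondria and peroxisomes, was the most abundant at 17.2 FPKM in Ct and 16.8 FPKM in CS. Pla2g6, a calcium-independent phospholipase, averaged 5.003 ± 0.187 FPKM in Ct and 4.49 ± 0.262 FPKM in CS (SD, n = 4 each), and its groups did not overlap. Its log2 fold change of −0.16 had a limma p of 0.102, with an exact permutation p of 0.0286, the smallest that 4 against 4 libraries allow. Of 10 lipoxygenase and lipid peroxide genes, 3 were tested (Gpx4, Acsl4 and Aifm2), none of them a lipoxygenase, and 0 had an unadjusted p under 0.05. Alox12 was at 0.535 FPKM, Alox12e at 0.477 FPKM and Alox5 at 0.0175 FPKM, whereas Gpx4, which reduces lipid peroxides, stood at 115 FPKM in Ct and 119 FPKM in CS.

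All 19 mitophagy genes were tested, and 1 had an unadjusted p under 0.05. That gene was Tbk1, a kinase that activates autophagy receptors, at 3.07 ± 0.203 FPKM in Ct and 3.88 ± 0.706 FPKM in CS (SD, n = 4 each). The log2 fold change of 0.31 (SE 0.13, 95% interval 0.02 to 0.60, limma p = 0.0382) had an adjusted p of 0.956, the groups overlapped and the exact permutation p was 0.0857. Fis1, an outer membrane protein of mitochondria, was the most abundant at 196 and 199 FPKM. Pink1 and Sqstm1, a kinase and a receptor of ubiquitin mitophagy, were at 99.6 and 102 FPKM.

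Of 18 tested genes for autophagosome transport and fusion, 0 had an unadjusted p under 0.05. Gabarap, which coats autophagosomes, averaged 164 FPKM in Ct and 163 FPKM in CS and its relative Gabarapl1 143 and 153 FPKM (log2 fold change 0.11, limma p = 0.0785, exact permutation p = 0.0571). Without Ct 3 the log2 fold change of Gabarapl1 was 0.05, and over the other single libraries left out it lay between 0.09 and 0.13. Rubcn, which restrains autophagosome maturation, averaged 6.99 FPKM in Ct and 7.59 FPKM in CS with no overlap. The log2 fold change of Rubcn was 0.12, and the limma fit did not call it at the adjusted or the unadjusted threshold. Rab7, the small GTPase that recruits Fyco1 to late endosomes, was at 51.3 FPKM, and the fusion SNAREs Stx17 and Snap29 were at 2.98 and 2.30 FPKM. Among 8 tested genes for autophagy of the endoplasmic reticulum, 0 had an unadjusted p under 0.05. Rtn3 averaged 46.6 and 46.7 FPKM and Fam134b 5.28 FPKM in Ct and 4.59 FPKM in CS (log2 fold change −0.19).

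Lens transcription factors were the last list, with 12 of 14 tested and 1 gene with an unadjusted p under 0.05. This gene was Hsf4, the heat shock factor of the lens, which is needed for Dnase2b expression. Hsf4 measured 135, 141, 138 and 139 FPKM in Ct libraries 1 to 4 and 143, 144, 151 and 149.6 FPKM in CS libraries 1 to 4, so that every CS library lay above every Ct library. The log2 fold change was 0.09 (SE 0.04, 95% interval 0.0041 to 0.18, limma p = 0.0416, adjusted p = 0.956, exact permutation p = 0.0286), and it did not pass the adjusted threshold. When libraries were centred on their median or rescaled without crystallins, the unadjusted p was 0.0857 and 0.0888. Dnase2b, with means of 70.1 and 72.1 FPKM, overlapped between the same groups.

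**Figure D4:**
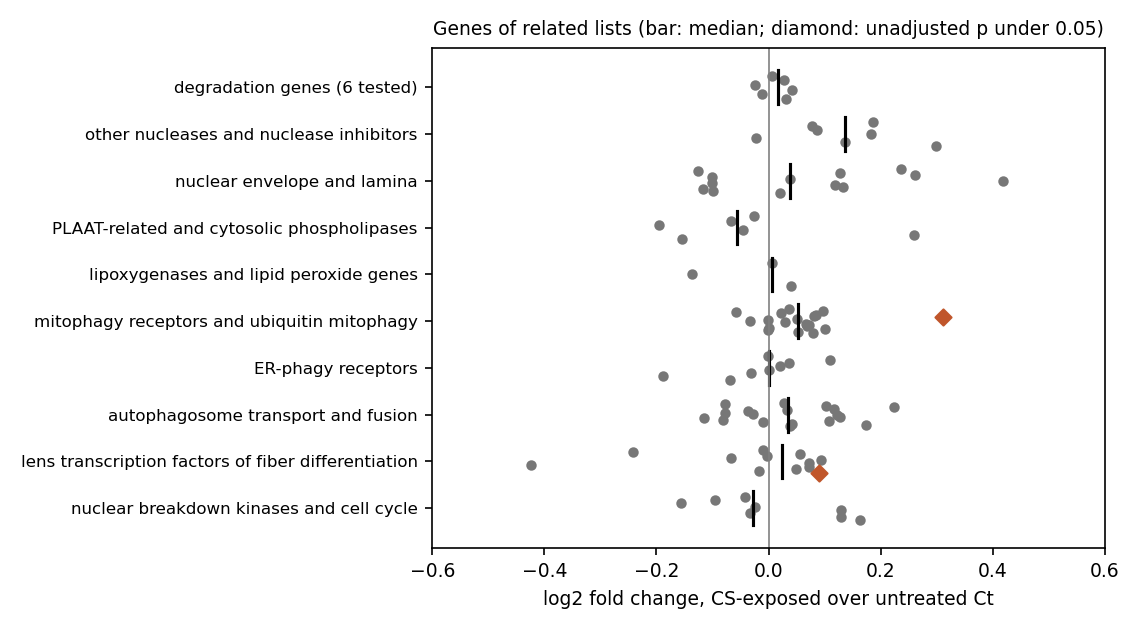
Log2 fold changes of CS over Ct for the tested genes of the 9 lists and the 6 tested degradation genes, with 1 point for each gene, a bar at each median and a diamond for an unadjusted limma p under 0.05. Diamonds mark Tbk1 and Hsf4 alone, and the 6 degradation genes lie between −0.02 and 0.04.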

How the data were processed

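RNA from pools of lens FC was sequenced as paired reads of 150 bases. The authors aligned the reads to GRCm38 with STAR 2.5, counted reads per gene with HTSeq 0.6.1 and deposited FPKM values for each library, and neither the annotation release nor a strand setting is given in the sources used here. The deposited table also holds the authors' own comparison as log2 fold changes and p-values from DESeq2, together with group means, and none of these columns was used. The 9 genes, the lists and the tests were chosen with earlier results of these data known.

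Values were fitted as log2(FPKM + 0.1) in limma 3.58.1 (R 4.3.3) with a variance trend, over genes averaging 1 FPKM or more in Ct or CS, all 8 libraries and Benjamini-Hochberg adjustment over all tested genes. Fold changes are on that scale and understate the change of low genes. Whole reads were recovered from the steps of low FPKM values for 9772 of 9794 tested genes, which gave the relative depth and the reads behind each value. They were also tested with limma-voom as an alternative. Exact permutation tests used scipy 1.17.1. Libraries are separate pools by their labels, so p-values measure the spread between pools. The genes named were all 9 members and, of each list, the most abundant gene, the gene with the smallest p and every gene with an unadjusted p under 0.05. Further genes given by level only, and Rubcn, were named after their values were seen, because they are close relatives or partners of a member or had groups that did not overlap. Older symbols were used where needed (Park2, Hrasls, Fam134b), and Vamp7 and Ahsp were not matched. Promoter windows came from RefSeq, and gene positions and overlaps from GENCODE M21. The fit was tested on simulated data. Alternatives were other pseudocounts and minimums, other scalings, other variance models, a replicate block, an Xist term and the leaving out of each library. Those within the libraries numbered 1 and 2 or 3 and 4, and levels on M21 gene lengths, were added after the data were seen.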

Additional observations from a re-analysis of the deposited data

Results flagged for a closer look

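In 5 of 38 groups of 4 libraries, 1 library lay farther from the others than Dixon's 95% limit allows, where chance gives about 1.9. Dnase2a was at 0.264 FPKM in Ct 3, from 25 reads, against 0.0494 to 0.0746 FPKM in the other Ct libraries, and the log2 ratio of Dnase2b to Dnase2a was accordingly 7.46 in Ct 3 against 8.80 to 8.85. The summed erythroid markers were at 22.8 FPKM in CS 4 against 0.4999 to 4.23 FPKM in the other CS libraries. The summed retinal pigment epithelium markers were at 27.4 FPKM in CS 3 against 3.69 to 6.397 FPKM. The summed melanocyte and ciliary pigment markers were at 6.52 FPKM in CS 4 against 0.425 to 0.698 FPKM. The part of these cells in the member levels was not tested.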

How the results depend on the processing

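None of the members that each of 23 alternatives tested was called (6 in most, 5 with a minimum of 5 FPKM, 7 with a minimum of 0.5 FPKM and 9 with no minimum). The lowest adjusted p of the 6 tested members was 0.912 (Pla2g16, no minimum) and their lowest unadjusted p 0.159 (Dnase2b without 1 library), and without a minimum Alox15 had an adjusted p of 0.909. None of the 93 list genes was called. Bnip3l kept its sign in all 23. Leaving out 1 library at a time gave log2 fold changes of −0.0019 to 0.092 for Dnase2b, −0.055 to 0.0067 for Bnip3, −0.050 to 0.084 for Fyco1, −0.052 to 0.062 for Epg5, −0.033 to 0.012 for Gabarap, −0.064 to 0.014 for Pnpla8 and −0.040 to 0.022 for Rtn3, and differences in log2 ratio of −0.24 to 0.23 for Dnase2b to Dnase2a and −0.012 to 0.034 for Bnip3l to Bnip3. In the fits without 1 library, log2 fold changes were 0.11 to 0.22 for Tatdn3 and 0.083 to 0.16 for Cdkn1b. They were −0.17 to −0.082 for Banf1 and −0.29 to −0.12 for Fam134b. Quantile normalization gave −0.0023 for Pla2g16, −0.010 for Fis1 and −0.0087 for Rtn3. Rtn3 was −0.0040 after centring, and rescaling without crystallins gave −0.021 for Rtn3 and −0.015 for Epg5. The libraries numbered 1 and 2 alone gave −0.036 for Fyco1, −0.15 for Epg5, −0.042 for Rtn3 and −0.41 for Fam134b. Those numbered 3 and 4 gave 0.072 for Bnip3, 0.0017 for Cdkn1c, 0.016 for Gabarap and 0.034 for Fam134b. List genes with an unadjusted p under 0.05 numbered 2, and numbered 4 with no minimum, 1 with a minimum of 5 FPKM, 0 after centring or without crystallins, 5 in the libraries numbered 3 and 4, and 0 to 4 without 1 library. Hsf4 kept its sign in 23 of 23 alternatives and an unadjusted p under 0.05 in 10, and Tbk1 in 22 of 22 and 13. With M21 gene lengths the log2 ratio of Pla2g16 to Bnip3l turned from 0.04 to −0.57. The causes of the other shifts were not tested.

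Over all tested genes, 269 were higher and 204 lower at an unadjusted p under 0.05, against 200 and 287 after rescaling without crystallins, where the median log2 fold change of all tested genes was −0.018 in place of 0.0043. The adjusted count of 1 became 0 without Ct 4, without a minimum, without a variance trend or in the libraries numbered 3 and 4, 2 with limma-voom and 5 with a replicate block, under which 0 members and 0 list genes were called. Same-numbered pools deviated together with correlations of 0.012, 0.078, 0.111 and 0.161, higher than with any other number (at most 0.055) in 3 of 4 pairs and over 0.1 in 2, and Xist split the numbers alike in both groups. The pools were not treated as paired. The replicate block gave p = 0.75 for both paralog ratios (exact permutation within pairs), a test that cannot give a p under 0.05 with 4 pairs. Dnase2a rests on 39 reads in Ct and 32 in CS, Alox15 on 18 and 8 and Dnase1 on 153 and 177, and how much of their wide intervals comes from depth was not tested.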
